A study of Mus musculus with 4 samples.

Results

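The BPI and PLUNC family was read in mouse salivary glands through 8 genes, which are spelled here as the array spells them, with the current name in brackets. They are Plunc (Bpifa1), Psp (Bpifa2), U46068 (Bpifb1), Bpil1 (Bpifb2), Bpil3 (Bpifb6), Bpil2 (Bpifc), Bpi and Lbp. They were chosen by name, and every probe that carries 1 of these names was kept, which gave 13 probes of 55681 on the array and 8 genes of 34844 names. Each of the 13 probes has 1 spot. Expression was measured on 4 Agilent 1-colour arrays of submandibular and sublingual gland RNA, 2 from mice labelled Myd88-null and 2 from wild type mice, and the question is whether loss of the adaptor MyD88 went with another level of these genes. All mice were female, of strain C57/BL6 and 10 weeks old. Per the study's methods, the Myd88-/- mice had been backcrossed to conventionally raised mice, and both genotypes were offspring of heterozygous parents. The labels name both glands, whereas the study's text speaks of submandibular glands for the arrays, so whether sublingual tissue was included in each sample is unsure. The labels do not say whether an array holds 1 mouse or a pool, and the study's legends give more mice per genotype than there are arrays, so p-values here measure only the spread between these samples. In such bulk tissue, fewer cells of a type and less RNA per cell cannot be told apart.

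Proteins with the BPI fold hold a lipid in a hydrophobic pocket. LBP extracts lipopolysaccharide (LPS) from bacterial membranes and passes it to CD14, from which it reaches the MD-2 and TLR4 complex whose signal runs through MyD88. BPI, stored in neutrophil granules, binds the same LPS and kills Gram-negative bacteria. The PLUNC branch (palate, lung and nasal epithelium clone) is secreted at mucosal surfaces of the mouth and upper airway: BPIFA1 coats airway epithelium, BPIFB1 is made by mucous cells, and parotid secretory protein, the product of Psp, is a major protein of mouse saliva.

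By the probe positions in the files (NCBI37/mm9), 7 of the 8 genes lie on chromosome 2. The probes of Bpil1, Bpil3, Psp, Plunc and U46068 fall within 325326 bases, at chr2:153720778-154046103, and those of Bpi and Lbp lie next to each other at chr2:158107194-158157684. Bpil2 lies apart on chromosome 10. The oligos that carry the results are printed here 5′ to 3′ as the files give them, whole at 60 bases for Psp, Lbp, Bpil3 and the Bpil2 probe nearest the start of its transcript, and as 30 bases for the others. The probes of Psp (chr2:153839487-153840200) and Lbp (chr2:158154142-158157684) span 714 and 3543 bases of genome, so each crosses a splice junction, and no 20-base run of either is shared with a probe of another gene. The Bpil3 probe lies at chr2:153738365-153738424.
Psp: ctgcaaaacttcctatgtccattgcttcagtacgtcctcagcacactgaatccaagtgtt
Lbp: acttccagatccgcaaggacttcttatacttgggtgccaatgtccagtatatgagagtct
Bpil3: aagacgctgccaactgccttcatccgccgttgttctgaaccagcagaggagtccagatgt

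The U46068 probes are shown because they overlap and so share much of their sequence. The upstream probe lies at chr2:154046019-154046078 and the downstream probe at chr2:154046044-154046103, offset by 25 bases. Capitals mark the outer part of the 35 bases that both probes hold. The first 30 bases are given for the upstream probe and the last 30 for the downstream probe.
U46068 upstream: aggagtgtggaagcctactgtgtagACTAC
U46068 downstream: CCGTGgctcctgttgtccgggtgtctctgt

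The Bpil2 probes are shown because they differ in what else they could bind. Capitals mark bases within runs of 20 or more that also occur under another gene. The probe at chr10:85422816-85422875 holds a TG repeat, and such runs are shared with 14 probes of 14 other gene names on the same strand. It also shares runs with the RefSeq promoters (GRCm38.p6, either strand) of 26 other genes of 27025. The probe at chr10:85422211-85422270 shares runs with no other probe, but with such promoters of 33 other genes. It is called promoter-sharing below because it shared runs with promoters alone. Its capitals resemble the B2 class of short repeats that is spread through the mouse genome. The start-proximal probe at chr10:85458646-85458705, which begins at base 391 of the transcript, shares no such run with either.
Bpil2 TG-repeat probe: AGGTGTGTGTGTGTGTGTGTATGTGTGTCT
Bpil2 promoter-sharing probe: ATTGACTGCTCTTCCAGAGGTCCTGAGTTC
Bpil2 start-proximal probe: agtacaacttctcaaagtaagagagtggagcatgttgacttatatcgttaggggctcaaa

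A level is given throughout as the log2 processed signal minus the 75th percentile of its array, and differences are Myd88-null minus wild type on that scale. A probe counted as above background where the scanner software marked it well above background, which held for 52.2% and 68.4% of probes on Myd88-null arrays 1 and 2 and 74.2% and 55.1% on wild type arrays 1 and 2. Dim probes were therefore seen mainly on Myd88-null array 2 and wild type array 1. The single Myd88 probe, which has 10 spots and starts at base 1629 of its transcript, read 1.51 and 1.41 on the Myd88-null and 1.15 and 1.07 on the wild type arrays. It was not lower on the arrays labelled Myd88-null, and without the position of the deleted part it does not check the labels. Salivary markers were present: all 9 submandibular acinar genes (median difference 0.37), all 8 granular convoluted tubule genes and all 5 sublingual and demilune genes listed exceeded background on all 4 arrays. Markers of other cells differed between the labels, with median log2 differences of -5.08 over 5 tested B cell genes, -2.71 over 5 T cell genes and -5.07 over 5 skeletal muscle genes, against 0.06 over all 31016 probes tested. The median over 7 macrophage genes was 0.03, and leaving out single arrays gave -0.20 to 0.24.

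Of the 13 probes, 7 exceeded background on all 4 arrays and were tested, and they stand for 5 genes: Psp, U46068, Bpil3, Bpil2 and Lbp. The other 6 probes were too dim to test, and Plunc, Bpil1 and Bpi have no tested probe. After adjustment over all probes, limma called 0 of the 7, as it called 0% of the array, and the adjusted p ranged from 0.279 to 0.897. At an unadjusted p under 0.05 there were 3 of 7 probes (42.9%), against 14.3% of all probes tested. The count was 1 without Myd88-null array 2, without wild type array 1 and without wild type array 2, and 2 without Myd88-null array 1, and it was 1 with the methods' t-test and 0 with median scaling. As reported, these were 2 probes that were higher on both Myd88-null arrays (U46068 downstream and Bpil3), where 8.36% of all probes had such a p and were higher, and 1 that was lower on both (Lbp), where 5.92% were lower. The same 3 of 7 probes had arrays that did not overlap between the labels, against 49.5% of all probes (31.6% higher and 17.8% lower on the Myd88-null arrays), so the share of the family without overlap was near that of the array. Every difference of the 7 probes was smaller than 2-fold, and their median was 0.04. Under median scaling limma gave all probes 1 common spread, so the count with that setting is not comparable with the others. With 2 arrays per label, the smallest p that an exact permutation test (two-sided) allows is 0.333.

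**Figure D1:**
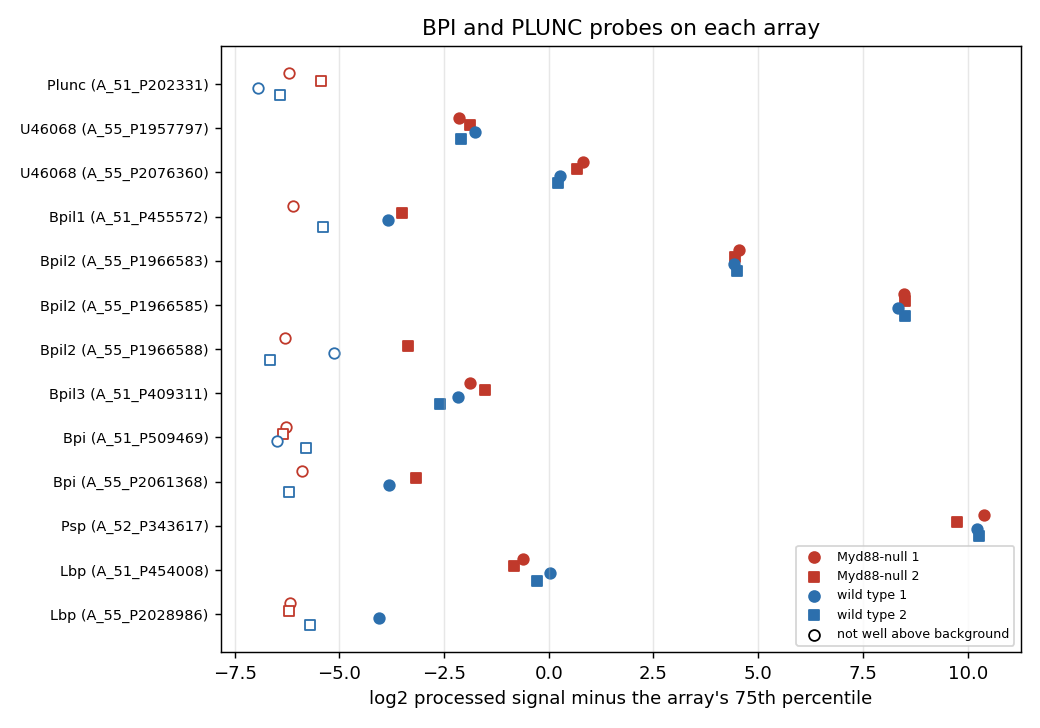
Log2 processed signal minus the array's 75th percentile (x axis) of each of the 13 probes of the family (y axis, array gene name and probe name), 1 point per array, with open points where the probe was not well above background. Psp lies between 9.74 and 10.39, 2 of the 3 Bpil2 probes are above background on all 4 arrays, and the probes of Plunc, Bpil1 and Bpi lie at or near background.

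Psp, the salivary member, was above background on every array, with levels of 10.39 and 9.74 on the Myd88-null arrays and 10.23 and 10.28 on the wild type arrays. Both labels overlapped, since Myd88-null array 1 was the highest of the 4 and Myd88-null array 2 the lowest. The means were 10.07 ± 0.46 and 10.25 ± 0.04 (SD, n = 2 each). The difference of -0.18 (standard error 0.26, 95% interval -0.93 to 0.56, adjusted p = 0.785 from limma) did not exceed the SD of the Myd88-null arrays. Myd88-null array 2 decided its direction, as the difference was 0.14 without that array, and quantile normalization gave -0.46.

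The array on which Psp was lowest was also lowest for parotid gland genes. All 7 listed (Amy1, Prb1, Prh1, Prpmp5, Prp2, Cst10 and Dnase1, which encode amylase, proline-rich proteins, a cystatin and a deoxyribonuclease) were above background on every array, and each was lowest on Myd88-null array 2. Their summed signal, in units of the 75th percentile, was 1901 and 669 on the Myd88-null arrays and 3300 and 3073 on the wild type arrays. limma called 0 of the 7, 5 had an unadjusted p under 0.05, all lower on the Myd88-null arrays, and their median difference was -2.29, or -1.33 without Myd88-null array 2. The largest was that of Cst10, at 7.67 and 5.49 against 9.25 and 8.98 (difference -2.53, adjusted p = 0.330 from limma). Amy1, named after its values were seen because its pattern is the least far from that of Psp, read 9.46 and 8.39 against 9.46 and 9.54. Psp thus differed less between Myd88-null arrays 1 and 2 than any of the 7. Parotid tissue is not among the labelled glands, its amount per sample is unknown, and its part in the values of Psp was not tested.

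The sublingual and demilune genes, markers of the mucous gland and its serous caps, were higher on the Myd88-null arrays except for Muc19. Their summed signal was 6042 and 6038 on the Myd88-null arrays and 4295 and 4617 on the wild type arrays. Of 5 genes limma called 0, and 4 had an unadjusted p under 0.05, all higher on the Myd88-null arrays, with a list median of 0.32. Smgc, a mucin-like product of the neonatal submandibular and adult sublingual gland, read 10.08 and 9.95 against 8.33 and 8.56 (difference 1.57, adjusted p = 0.262 from limma). The demilune genes Dcpp1, Dcpp2 and Dcpp3 differed by 0.30 to 0.34, and Muc19, the main gel-forming mucin of the sublingual gland, by -0.13. The 9 submandibular acinar genes lay the same way, 7 higher and 2 lower, with a median of 0.37, 4 at an unadjusted p under 0.05, all higher, and 0 called by limma. Their summed signal was 4314 and 4418 against 3318 and 3480. On Myd88-null array 2 Psp lay below both wild type arrays, and so did Muc19 (8.38 against 8.53 and 8.68). The Dcpp genes and Smgc lay above them.

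**Figure D2:**
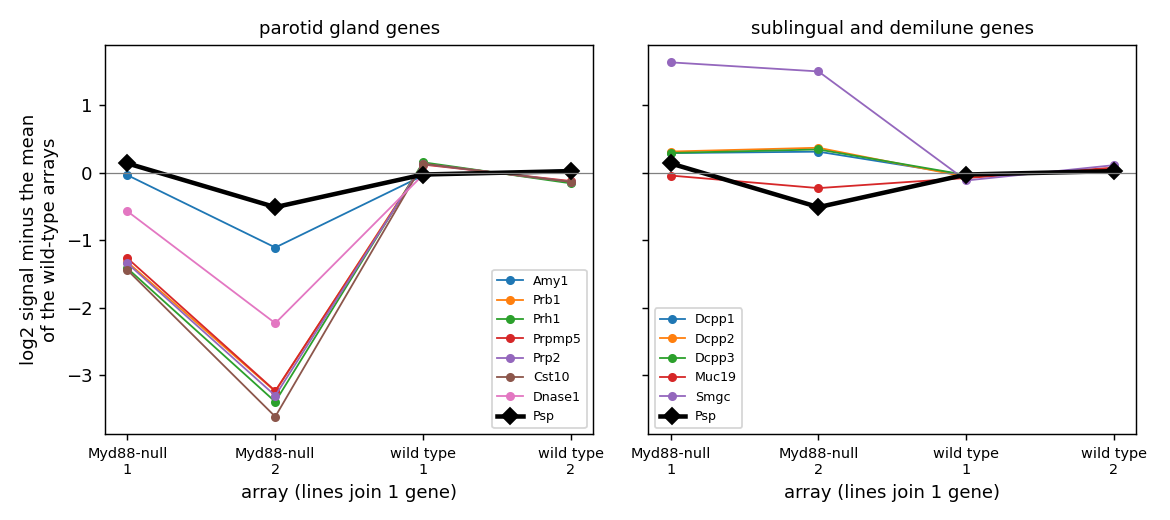
Log2 signal of Psp (black diamonds) and of parotid gland genes (left) or sublingual and demilune genes (right) on each of the 4 arrays (x axis), as the log2 signal minus the mean of the wild type arrays (y axis), with lines joining the values of 1 gene. All 7 parotid genes, Psp and Muc19 are lowest on Myd88-null array 2. Smgc and the Dcpp genes are higher on both Myd88-null arrays.

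U46068 (Bpifb1) was called on neither of its overlapping probes. On the downstream probe the levels were 0.81 and 0.68 on the Myd88-null arrays and 0.27 and 0.23 on the wild type arrays, so that both Myd88-null arrays lay above both wild type arrays. The difference was 0.49 (standard error 0.11, 95% interval 0.17 to 0.82, adjusted p = 0.279 from limma), or 1.41-fold. The upstream probe, of which 35 of 60 bases are the same, read -2.13 and -1.89 against -1.75 and -2.10. There the labels overlapped, and the difference was -0.09 (standard error 0.19, 95% interval -0.62 to 0.45, adjusted p = 0.868 from limma). The bases that only the upstream or only the downstream probe holds are printed above. Whether the probes' differences differ from each other was not tested, and which of them follows the transcript cannot be told from these files.

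Plunc (Bpifa1), the founding member of the branch, was above background on no array, with levels of -6.19 and -5.44 on the Myd88-null arrays and -6.95 and -6.41 on the wild type arrays. Its probe spans 421 bases of genome at chr2:153973411-153973831. Bpil1 (Bpifb2), at chr2:153720778-153720837, read -6.11 and -3.50 against -3.83 and -5.38, and it was above background on Myd88-null array 2 and wild type array 1, the arrays on which most probes were. No difference between the labels could be read for either gene at this signal. The arrays' low readings do not show that the genes were silent.

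Markers of mucosal secretory epithelium were in part present. Of 13 mucosal surface secretory genes, 7 were above background on all 4 arrays and were tested, limma called 0 of them, 0 had an unadjusted p under 0.05, and their median difference was 0.12, which turned to -0.086 without Myd88-null array 1 and -0.028 without Myd88-null array 2. The largest differences were 0.54 for the mucin gene Muc5ac, -0.34 for Sftpd (surfactant protein D), 0.33 for the club cell secretoglobin Scgb1a1 and 0.28 for the mucin gene Muc5b. Scgb1a1, Muc5ac and Muc5b were dim, with mean levels of -3.27, -2.62 and -2.58 on the Myd88-null arrays. On the wild type arrays the means were -3.61, -3.15 and -2.86. The labels overlapped for Muc5ac and Muc5b. Scgb3a2 and Reg3g, which airway and gut epithelia secrete, were above background on no array.

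Bpil3 (Bpifb6), a less studied member of the chromosome 2 cluster, was above background on every array. Its levels were -1.88 and -1.51 on the Myd88-null arrays and -2.16 and -2.59 on the wild type arrays, or -1.70 ± 0.26 and -2.37 ± 0.31 (SD, n = 2 each). Both Myd88-null arrays lay above both wild type arrays. The difference was 0.68 (standard error 0.23, 95% interval 0.01 to 1.34, adjusted p = 0.344 from limma), or 1.60-fold. Between arrays with like numbers of probes above background it was 0.71 (Myd88-null array 1 against wild type array 2) and 0.64 (Myd88-null array 2 against wild type array 1), and with each array left out it lay between 0.46 and 0.90. With normexp background correction it was 0.40.

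Bpil2 (Bpifc), a member best known from skin, was above background on all 4 arrays by 2 of its 3 probes. The promoter-sharing probe was even across the arrays, at 8.49 and 8.50 on the Myd88-null arrays and 8.33 and 8.51 on the wild type arrays. Its difference was 0.08 (standard error 0.12, 95% interval -0.27 to 0.43, adjusted p = 0.811 from limma). The TG-repeat probe read 4.55 and 4.45 against 4.41 and 4.50, a difference of 0.04 (standard error 0.11, 95% interval -0.28 to 0.37, adjusted p = 0.897 from limma). On both probes the labels overlapped, and these were the smallest differences of the family. The start-proximal probe, which shares no run with other genes, was above background on Myd88-null array 2 alone, at -6.31 and -3.35 against -5.13 and -6.66.

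The 14 probes of other genes that share a run with the TG-repeat probe were all above background on all 4 arrays (100%), where 50.2% of all probes were. Their mean log2 levels ran from 2.68 to 7.14 with a median of 4.76, and the median of their differences was 0.06. Shared runs of this length occur in 7.22% of the array's probes. Cross-hybridization was not tested, so the level of the Bpil2 transcript in these glands cannot be taken from these probes. Markers of cornified skin were scarce in the glands, since 1 of 6 cornified epithelium genes could be tested, and Krt1 and Dsg1a were above background on no array.

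Lbp was the only tested gene of the family that was lower on both Myd88-null arrays than on both wild type arrays. Its levels were -0.62 and -0.82 on the Myd88-null arrays and 0.02 and -0.28 on the wild type arrays, or -0.72 ± 0.14 and -0.13 ± 0.22 (SD, n = 2 each). The difference was -0.59 (standard error 0.17, 95% interval -1.07 to -0.11, adjusted p = 0.309 from limma), or 1.51-fold. Arrays with like numbers of probes above background gave -0.34 (Myd88-null array 1 against wild type array 2) and -0.84 (Myd88-null array 2 against wild type array 1), and leaving out each array gave -0.75 to -0.44. A second Lbp probe, at chr2:158136176-158136235, was above background on wild type array 1 alone, with levels of -6.17 and -6.21 against -4.06 and -5.70, and was not tested.

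Genes of LPS recognition and of the signal that follows it were read beside Lbp. Of 16 LPS recognition genes 14 were tested, 11 of them higher and 3 lower on the Myd88-null arrays, with a median difference of 0.22, where 40.6% of all probes tested were lower and the median was 0.06. limma called 0, and 3 had an unadjusted p under 0.05, 2 higher (Tirap and Myd88) and 1 lower (Ly86). Myd88, the targeted gene, is counted among the 11 higher, though the place of its probe relative to the deleted part is unknown. The LPS receptor genes, named because LBP acts on them and not for their size, differed by 0.24 for Cd14, 0.10 for Ly96 (MD-2) and 0.21 for Tlr4. The largest differences were -0.69 for Ly86, which encodes the MD-1 partner of CD180 (0.90 and 0.83 against 1.74 and 1.37, adjusted p = 0.290 from limma), 0.48 for the lipoprotein receptor gene Tlr2, 0.47 for the adaptor gene Tirap and 0.35 for Myd88. Cd180, which encodes the receptor that pairs with MD-1, and Ticam2, an adaptor gene of TLR4, were above background on no array.

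Genes of the acute phase, the programme in which the liver and other tissues make LBP and related defence proteins, were mostly lower on the Myd88-null arrays. Of 15 listed 12 were tested, 10 lower and 2 higher, with a median difference of -0.35, or -0.18 without wild type array 1. limma called 0, and 3 had an unadjusted p under 0.05, all lower. The largest differences were -0.80 for Orm2, -0.74 for Orm1 (both encode acid glycoproteins of plasma), -0.72 for the interleukin 6 receptor gene Il6ra, and -0.520 for Socs3, a feedback inhibitor of cytokine signals. Hp, which encodes haptoglobin and is named because its call depended on the setting, differed by -0.517 and read 3.84 and 3.83 against 4.34 and 4.37 (adjusted p = 0.271 from limma). The 2 higher genes, named after their values were seen, were the serum amyloid gene Saa1 (0.09) and the transcription factor gene Stat3 (0.03). Crp was above background on no array.

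**Figure D3:**
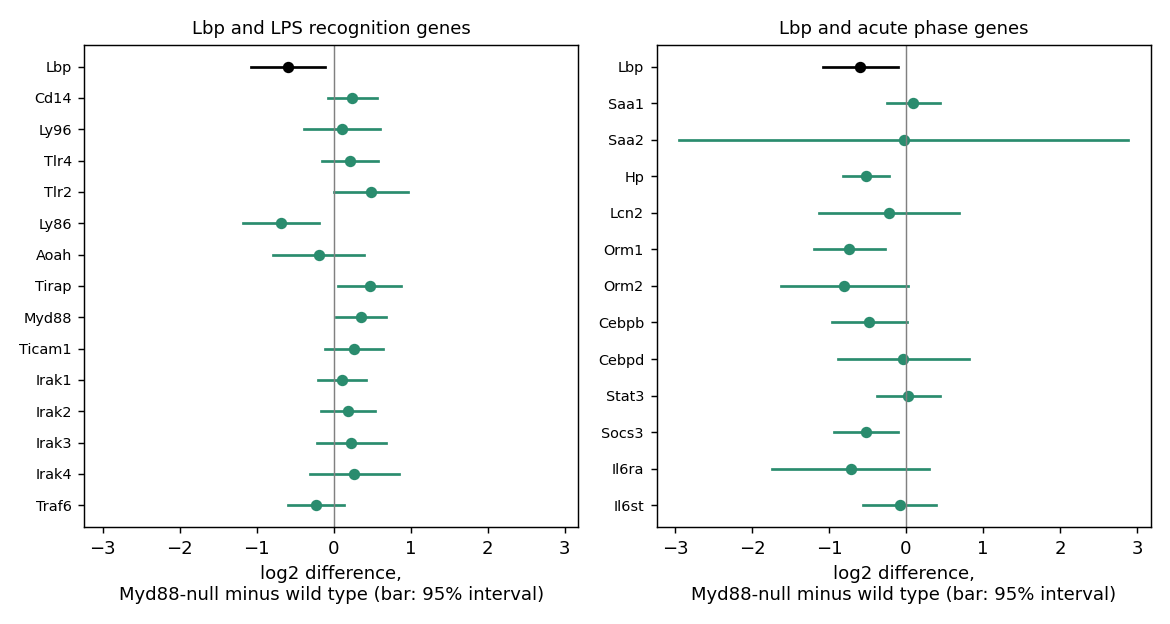
Log2 difference, Myd88-null minus wild type (x axis), of Lbp (black) and of the tested LPS recognition genes (left) and acute phase genes (right), with bars for the 95% interval from limma and n = 2 arrays per label. Lbp lies at -0.59, 11 of 14 LPS recognition genes lie above 0 and 10 of 12 acute phase genes lie below 0.

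Liver and fat, which also make LBP, were looked for by their markers. The hepatocyte genes Alb and Apoa1 were above background on no array, and 4 others were above background on all 4 arrays. These differed by 1.32 for Ttr, 1.31 for Fgb, -0.72 for Tat and 0.08 for Apoa2. The median of the 4 was 0.69, and leaving out single arrays gave 0.27 to 0.94. Adipocyte genes lay in the direction of Lbp: 6 of 7 were tested, and all 6 were lower on the Myd88-null arrays. Of all probes tested, 40.6% were lower. Retn differed by only -0.08, and its labels overlapped. Without Myd88-null array 2 or without wild type array 1, 5 of the 6 were lower. limma called 0, and 2 were lower at an unadjusted p under 0.05, against 5.92% of all probes. The median difference of the 6 adipocyte genes was -0.71, or -0.44 without Myd88-null array 1 and -1.11 without Myd88-null array 2. The summed signal was 153 and 238 on the Myd88-null arrays and 324 and 328 on the wild type arrays. The largest differences were -1.09 for the lipid droplet gene Plin1, -0.84 for the fatty acid carrier gene Fabp4 and -0.76 for the adiponectin gene Adipoq, and Lep was above background on no array. The part of fat cells in the difference of Lbp was not tested.

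Bpi, the neutrophil member, was not measurable. Its probe at chr2:158110190-158110249 was above background on no array, at -6.27 and -6.33 against -6.49 and -5.79. The other, at chr2:158107194-158107253, read -5.88 and -3.17 against -3.81 and -6.19 and was above background on Myd88-null array 2 and wild type array 1. Of 14 neutrophil granule genes 9 were tested, 7 lower and 2 higher on the Myd88-null arrays, with a median difference of -0.46. limma called 0, and 2 had an unadjusted p under 0.05, both lower. The 2 higher genes, named after their values were seen, were the granule protease genes Ctsg (0.32) and Elane (0.20). Each was above background on all 4 arrays, and the labels overlapped for Ctsg. Among genes above background on all 4 arrays, the largest differences were -1.45 for the calprotectin subunit gene S100a9 and -0.46 for Ly6g, which encodes a neutrophil surface protein. S100a8, its partner subunit, read -4.48 and -3.69 against -1.85 and -3.23, the first of these not above background. The myeloperoxidase gene Mpo, 1 of the 2 with an unadjusted p under 0.05, read -5.19 and -4.60 against -3.20 and -3.71 (adjusted p = 0.271 from limma). Neither Myd88-null reading was above background. S100a8 and Mpo passed the filter only through the wild type arrays, so the filter bears on their direction and on the counts above. A lower bound on the fold of Mpo was 1.46. For this bound, each dim array was set at the lowest signal above background there, or at the signal of the probe where that was higher.

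The rest of the BPI fold gave no call either. Of 10 further genes, Bpifb9a and Cetp were found under no name on the array, and 6 of the other 8 were tested, with 0 called by limma and 0 at an unadjusted p under 0.05. Their median difference was -0.48, or -0.23 without Myd88-null array 1 and -0.27 without wild type array 1. Pltp, the phospholipid transfer protein of plasma, read 0.60 and 0.64 on the Myd88-null arrays and 0.97 and 0.87 on the wild type arrays. Both Myd88-null arrays lay below both wild type arrays, as for Lbp, and the difference was -0.31 (95% interval -0.62 to 0.01, adjusted p = 0.355 from limma).

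Among the PLUNC relatives tested, 1700058C13Rik (Bpifa3) read -2.87 and -3.74 against -4.05 and -4.18, the last of these not above background. 2310021H06Rik (Bpifa5) differed by 0.34. Gm5840 (Bpifa6) read -1.23 and -2.62 against -0.37 and -0.79, a difference of -1.34 with a wide 95% interval of -2.88 to 0.20. Rya3 (Bpifb3) read -5.30 and -3.30 against -2.23 and -4.03, so that its labels overlapped, and the first of these was not above background. Gm1006 (Bpifb4) read -4.06 and -3.98, neither above background, against -2.99 and -3.75. It was tested only through the wild type arrays, so the filter bears on its direction. The bound described for Mpo was 1.52-fold here. The 95% interval of the difference, -1.51 to 0.20, included 0 (adjusted p = 0.423 from limma). BC018465 (Bpifb5) was above background on no array, and 5430413K10Rik (Bpifb9b) on Myd88-null array 2 and wild type array 1 alone, as were Bpil1 and the second Bpi probe.

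**Figure D4:**
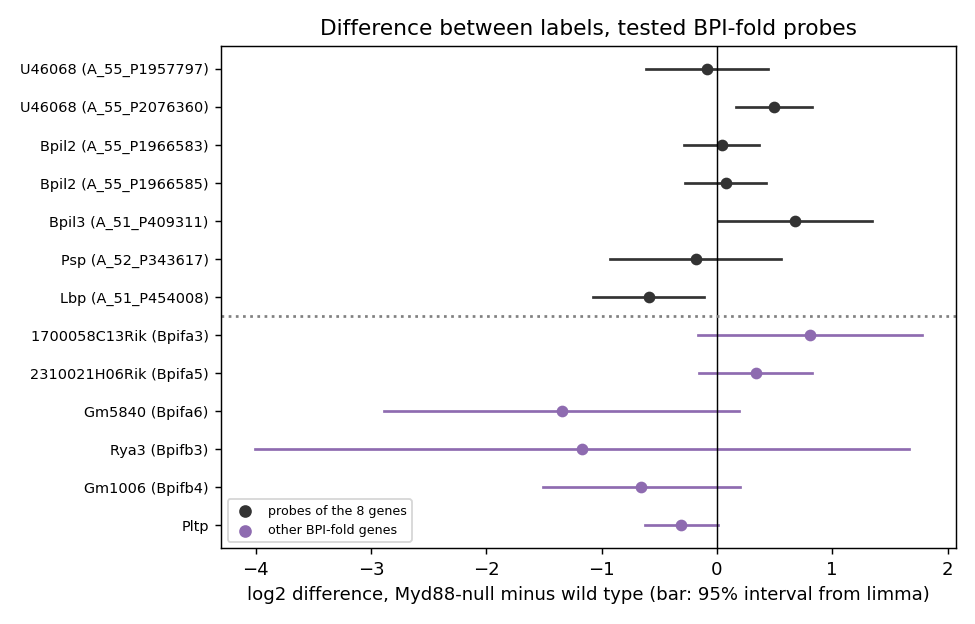
Log2 difference, Myd88-null minus wild type (x axis), of the 7 tested probes of the family (black) and the 6 tested other BPI-fold genes (purple), with bars for the 95% interval from limma and n = 2 arrays per label. The intervals of U46068 downstream (A_55_P2076360), Bpil3 and Lbp leave out 0, and those of the 6 other genes do not.

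Likeness of pattern was measured for the salivary and the LPS-carrying member, as the root mean square distance between log2 profiles over the 4 arrays after centring, among 22311 other genes. The nearest to Psp were Daglb at a distance of 0.0268, Gm1673 at 0.0430, NAP111545-1 at 0.0431, Gm13212 at 0.0447 and Pde8b at 0.0450. None of them is on the parotid or sublingual lists. The nearest to Lbp were Aif1l at 0.0180, Ogn at 0.0230, Cyba at 0.0243, Zfp945 at 0.0288 and Abi3bp at 0.0340. Ogn and Abi3bp encode extracellular matrix proteins and Cyba a subunit of the phagocyte oxidase. Profiles of 4 points are easily alike, and 77 genes lay within 0.1 of Psp and 126 within 0.1 of Lbp.

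Some settings rescale or re-correct the signal: normexp, median scaling, quantile normalization, and a 75th percentile of detected probes alone. They can turn the sign of a small difference. Median scaling and the percentile of detected probes each shift the differences of all probes by the same amount. For Lbp the shift was from -0.59 to -0.64 with either, too little to turn differences of this size. Over the settings named, the difference of Bpil3 was 0.40 to 0.66, that of U46068 downstream 0.41 to 0.48, and that of Lbp -0.64 to -0.45. Psp also kept its sign there, at -0.46 to -0.23. Leaving out 1 array cannot turn the sign of Bpil3, U46068 downstream or Lbp, since their labels do not overlap. Changes of the model or filter leave the difference as it is. Psp turned sign without Myd88-null array 2, and the upstream U46068 probe and both tested Bpil2 probes turned in at least 1 setting. In none of the settings was a probe of the family called.

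**Figure D5:**
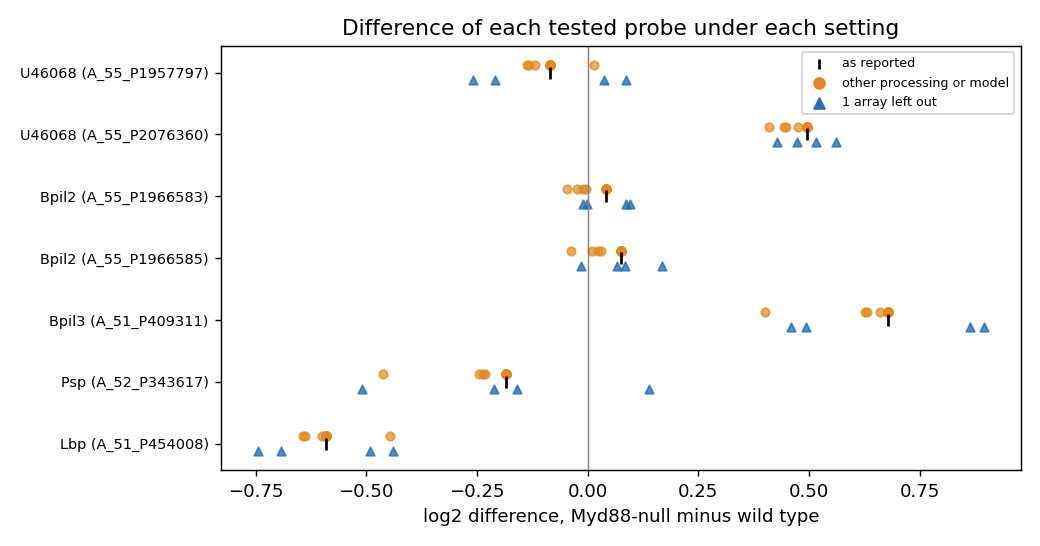
Log2 difference, Myd88-null minus wild type (x axis), of each tested probe as reported (black bar), under other processing or another model (orange circles) and with 1 array left out (blue triangles). The points of Bpil3 and U46068 downstream (A_55_P2076360) lie above 0 and those of Lbp below 0 throughout, while Psp and the other probes cross 0.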

How the data were processed

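Total RNA of submandibular and sublingual glands was labelled with Cy3 and hybridized to 1 Agilent whole mouse genome array per sample. The authors deposited Feature Extraction 10.7.3.1 scanner files. Their processed signal is an intensity after background subtraction and detrending, dim spots being given a surrogate, without normalization between arrays, and the deposited mean and background intensities are uncorrected. All 4 arrays share 1 slide. A table with 4 value columns was not used, because its columns could not be assigned to samples.

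From these, log2 processed signal minus the array's 75th percentile (256, 237, 321 and 269 in the order Myd88-null 1 and 2, wild type 1 and 2) was computed over 59305 non-control spots. Outlier spots (99 to 131 an array) were left out, 0 spots were saturated, and a probe's spots were averaged. Background was exceeded where the share of spots well above background passed 0.5, and a probe was tested where this held on both arrays of a label. In total, 31016 probes were fitted with limma 3.58.1 (lmFit, eBayes, R 4.3.3), with Benjamini-Hochberg adjustment over all of them and a threshold of 0.05. The brightest tested probe stood for a listed gene. The number of arrays limits the precision.

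Older array names were matched to RefSeq (GRCm38.p6), which named 22173 of 34844 array names. The genes named are the family, all other BPI-fold genes, up to 4 tested genes per list by size of difference, absent defining markers, Myd88, a few others named as chosen after their values were seen or as partners of LBP, and the 5 nearest profiles of Psp and Lbp. The members and lists were chosen with earlier results of these data known. Replicate arrays correlated at 0.990 (Myd88-null) and 0.991 (wild type) over 27940 probes. The procedure was tested on simulated data. Other settings, 15 listed beforehand and 1 added later, are described at the end.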

Additional observations from a re-analysis of the deposited data

How the results depend on the processing

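The count of probes called over the whole array, 0 as reported (with 4430 probes at an unadjusted p under 0.05, 41.4% of them lower on the Myd88-null arrays), was 130 with normexp, 373 with trended and robust moderation, 496 with median scaling and 1 with the methods' t-test (3685 without adjustment). The share lower was 51.6% with the 75th percentile over detected probes and 75.4% with median scaling. Without each array the count was 0. In none of these was a probe of the family called, and its smallest adjusted p was 0.0966. Of the listed genes, trended and robust moderation called 1 acute phase gene, Hp, and median scaling called 5 parotid genes. Under median scaling limma fitted 1 common spread to all probes. A probe's own spread between replicate arrays then did not enter its p-value, as for Cst10 with an SD of 1.54 on the Myd88-null arrays. The counts with median scaling are therefore not comparable with those of the other settings. The difference of Psp turned to 0.14 without Myd88-null replicate 2 (range with each array left out -0.51 to 0.14). The upstream U46068 probe turned to 0.014 with normexp and ranged from -0.26 to 0.087 with each array left out, 0.038 without Myd88-null replicate 1 and 0.087 without wild type replicate 1. The Bpil2 TG-repeat probe turned to -0.024 with normexp, -0.047 with quantile normalization, -0.0044 with the percentile over detected probes and -0.0096 with median scaling, and ranged from -0.011 to 0.10 with each array left out. The promoter-sharing Bpil2 probe turned to -0.037 with quantile normalization and ranged from -0.015 to 0.17 with each array left out. The cause of these turns was not tested. The downstream U46068 probe ranged from 0.43 to 0.56 with each array left out. Labels share replicate numbers, but same-numbered arrays deviated apart (correlation -0.384), so the numbers do not pair them. With the replicate block 0 probes were called over the array, 2680 had an unadjusted p under 0.05, and 0 of the 7 probes of the family were called. With the crossed pairing, chosen after seeing the data, 0 were called and 5203 had an unadjusted p under 0.05. Dim signal kept Plunc, Bpil1 and Bpi from being tested. Fitted without the filter on dim probes, 1 of 13 probes of the family had an unadjusted p under 0.05.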
